A study of Homo sapiens with 6 samples.

Results

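Aldehyde dehydrogenases were followed by RNA sequencing in LNCaP, a human prostate cancer cell line whose growth responds to androgens. The members are 10 genes chosen by symbol, ALDH1A1, ALDH1A2, ALDH1A3, ALDH1B1, ALDH2, ALDH3A2, ALDH4A1, ALDH6A1, ALDH7A1 and ALDH9A1. All 10 were found among the 23354 genes of the deposited read-count table. In 3 libraries, called DHT+WBM, the cells received 1 nM of the androgen dihydrotestosterone (DHT) together with 3 µL/mL of a white button mushroom (WBM) extract for 48 h. In the other 3 libraries, called DHT, they received the same dose of DHT for 48 h without the extract. Every library therefore carries DHT, and cells without DHT were not analysed here. The labels name no vehicle for the cells without extract, and they leave unsaid whether each library had its own culture. The p-values therefore cover the spread among 3 libraries a group, which may be technical. LNCaP is an established line, and all libraries come from that line alone.

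Aldehyde dehydrogenases oxidise reactive aldehydes to acids, using NAD or NADP as the electron acceptor. Each member has a preferred substrate: retinaldehyde, the precursor of the hormone retinoic acid; acetaldehyde from alcohol and other small aldehydes; long-chain fatty aldehydes; semialdehydes formed when amino acids are broken down; or amino-aldehydes on the way to carnitine. In prostate cancer cells the family is best known through ALDH1A1, used as a marker of stem-like cells, and ALDH1A3, described as an androgen-responsive gene in this line.

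The libraries held between 19127357 and 21490953 counts. All 9 luminal prostate markers examined, among them KLK3 and KRT18, were at 105 CPM (counts scaled to equal library sizes) or more in every library. Of 12 markers of immune, endothelial, stromal and basal cells, 9 stayed under 0.5 CPM in all libraries, COL1A2 and KRT5 being at 0 throughout. Their summed level was 14.8 to 15.99 CPM in DHT+WBM and 14.3 to 17.3 CPM in DHT, most of it from COL1A1. The summed luminal markers were at 2926 to 3008 CPM in DHT+WBM and 4361 to 4572 CPM in DHT. KLK3 alone was at 617 CPM in DHT+WBM and 1683 CPM in DHT. Of the 9 markers 5 were lower and 1 higher, or 66.7% called, against 58.2% of all genes tested as described below. FOLH1, KRT18 and EPCAM were not called. The part of the luminal difference in the results below was not tested.

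The members did not all move one way with the extract. ALDH3A2 and ALDH2 were higher in DHT+WBM, ALDH1A1, ALDH1A3, ALDH1B1, ALDH4A1 and ALDH6A1 were lower, and ALDH9A1 did not pass the test. The test was edgeR's quasi-likelihood test on all 13466 genes that passed a low-count filter, with Benjamini-Hochberg adjustment and a threshold of 0.05. ALDH1A2 and ALDH7A1 did not pass the filter and are given by their counts. Of the 8 tested members 2 were higher and 5 lower, where 29.2% of all tested genes were higher and 29.0% lower, 58.2% in all. A call is therefore common among these genes, and sizes are given throughout. In such bulk libraries, fewer cells that express a gene and less of its RNA per cell cannot be told apart. The groups' libraries did not overlap for 7 of the 8, against 62.2% of all tested genes. With all libraries, none of the 8 changed 2-fold or more, where 5.70% of all tested genes were both called and changed at least 2-fold. ALDH1A1 passed 2-fold without DHT+WBM replicate 2, at a log2 value of -1.02. The median log2 fold change of the 8 was -0.29, against 0.00 for all tested genes, and the median size of the change was 0.52 against 0.21. All 8 were above the filter, near 0.486 CPM, in every library, the lowest value being 1.43 CPM for ALDH1A1.

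Promoter sequences of 4 called members whose windows held a motif described here are shown as background to their values. RefSeq windows of 300 bases, 250 before and 50 after an annotated start (build GRCh38.p14), were available for 9 of the 10 members in 12 windows. ALDH2 was not matched. Capitals mark CCAAT, a common core promoter element, and GCGTG, the core to which the aryl hydrocarbon receptor binds, on either strand. For ALDH1A1 (chr9:72953057-72953303, minus strand) and ALDH6A1 (chr14:74084494-74084703, minus strand) the bases before every annotated exon are given. For ALDH1A3 (chr15:100879776-100879805, plus strand) and ALDH3A2 (chr17:19648663-19648692, plus strand) the 30 bases around a GCGTG match are given.
ALDH1A1: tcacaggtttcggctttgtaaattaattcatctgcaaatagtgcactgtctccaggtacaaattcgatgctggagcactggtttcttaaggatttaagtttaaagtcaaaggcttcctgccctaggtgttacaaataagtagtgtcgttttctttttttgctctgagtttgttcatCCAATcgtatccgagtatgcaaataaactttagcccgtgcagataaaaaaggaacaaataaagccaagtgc
ALDH6A1: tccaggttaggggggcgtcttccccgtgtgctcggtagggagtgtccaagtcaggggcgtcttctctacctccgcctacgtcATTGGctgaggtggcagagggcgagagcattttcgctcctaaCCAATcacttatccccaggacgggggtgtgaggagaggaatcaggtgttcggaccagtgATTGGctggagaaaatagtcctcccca
ALDH1A3: ctcgggcgggagGCGTGgggcgctgcataa
ALDH3A2: agggcgggggccGCGTGggcgaggccgtga

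The windows differed widely in composition. ALDH1A1 and ALDH1A3, which encode enzymes of the same reaction, stood at 40.3% and 81.7% G+C, against a median of 58.7% over all 35116 windows of the table. The ALDH6A1 window held 4 CCAAT matches, the 3 shown and another at -40 to -36 from the start, and 0.991% of all windows held at least 4. CCAAT also occurred once in a window of ALDH1A1, ALDH1A2, ALDH1A3, ALDH1B1, ALDH3A2 and ALDH7A1, and in 34.6% of all windows. GCGTG occurred in a window of each of ALDH1A2, ALDH1A3 and ALDH3A2, with 2 matches per window, and in 36.5% of all windows. The other window of ALDH1A2 and that of ALDH3A2 held neither GCGTG nor CCAAT. The core of the antioxidant response element, searched as TGACNNNGC on both strands, was in 13.3% of all windows and in none of the 12 member windows. These matches describe the letters of the windows, and no binding was measured.

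Per unit of gene length, ALDH9A1 and ALDH3A2 were the most abundant members and ALDH1A2 the least. Levels between genes are compared as RPKM, which is CPM divided by the deposited gene length in kilobases. In DHT+WBM the order ran from ALDH9A1 at 99.2 ± 0.55 RPKM and ALDH3A2 at 95.1 ± 1.09 RPKM, through ALDH1B1 at 40.1 RPKM, ALDH2 at 33.1 RPKM and ALDH6A1 at 29.9 RPKM, to ALDH4A1 at 11.3 RPKM and ALDH1A3 at 10.97 RPKM (SD where given, n = 3). ALDH1A1 followed at 0.835 RPKM, and ALDH7A1 and ALDH1A2 were at 0.0607 and 0.00861 RPKM. In DHT the order was ALDH9A1 at 95.6 ± 3.72 RPKM, ALDH3A2 at 55.4 ± 2.2 RPKM, ALDH6A1 at 50.9 RPKM, ALDH1B1 at 43.0 RPKM, ALDH2 at 27.7 RPKM, ALDH4A1 at 16.5 RPKM, ALDH1A3 at 15.4 RPKM, ALDH1A1 at 1.45 RPKM, ALDH7A1 at 0.0865 RPKM and ALDH1A2 at 0.0129 RPKM. Libraries of neighbours in these orders overlapped only for ALDH4A1 and ALDH1A3 in DHT+WBM and for ALDH3A2 and ALDH6A1 in DHT. ALDH6A1 was thus behind ALDH1B1 and ALDH2 in DHT+WBM, while it was ahead of both in DHT.

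**Figure D1:**
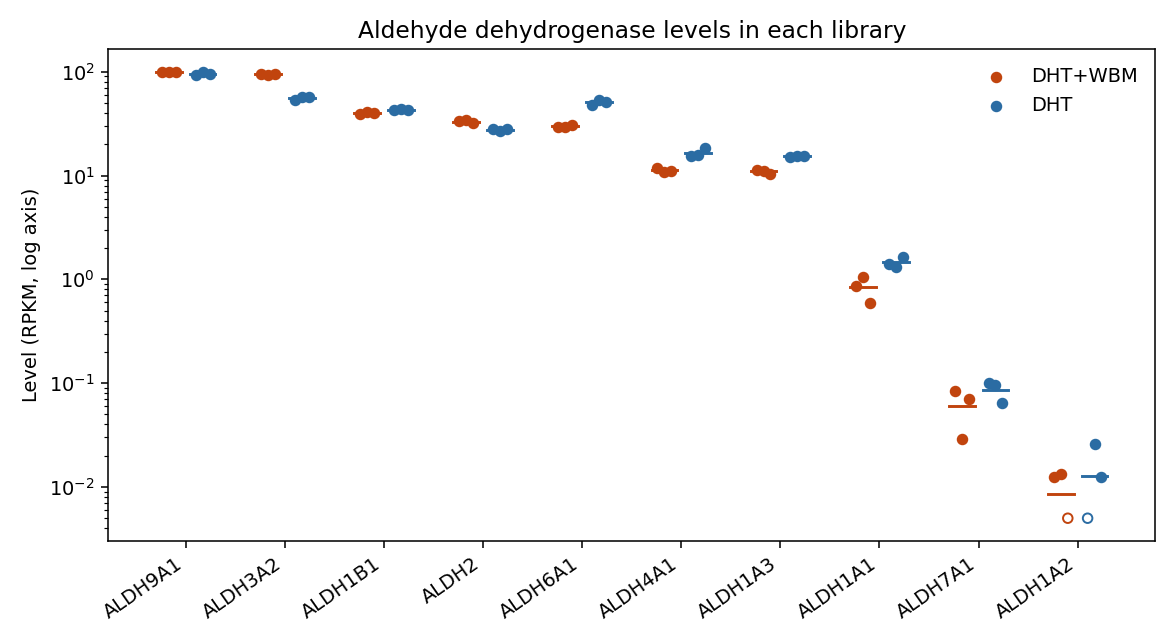
Level of each aldehyde dehydrogenase in RPKM on a log axis, with a point per library and a line at the mean of 3 libraries, DHT+WBM in red on the left of each pair and DHT in blue. Open circles at the bottom are libraries with no count. ALDH3A2 is near 95.1 RPKM in DHT+WBM and 55.4 RPKM in DHT, and the 3 members on the right lie below 2 RPKM.

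The total over the 10 members differed far less than its makeup. It was 321, 320 and 320 RPKM in DHT+WBM replicates 1 to 3 and 296, 313 and 309 RPKM in DHT replicates 1 to 3, a ratio of 1.05. ALDH3A2 made up 29.7 ± 0.31% of the total in DHT+WBM and 18.1 ± 0.24% in DHT (SD, n = 3). The amino acid group of ALDH4A1, ALDH6A1 and ALDH7A1 made up 12.9 ± 0.26% in DHT+WBM and 22.1 ± 0.59% in DHT, almost all of it from ALDH6A1 and ALDH4A1. ALDH9A1 made up 30.9% in DHT+WBM and 31.2% in DHT. The mitochondrial pair of ALDH1B1 and ALDH2 made up 22.8% in DHT+WBM and 23.1% in DHT. These sums describe RNA and follow the most abundant members.

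**Figure D2:**
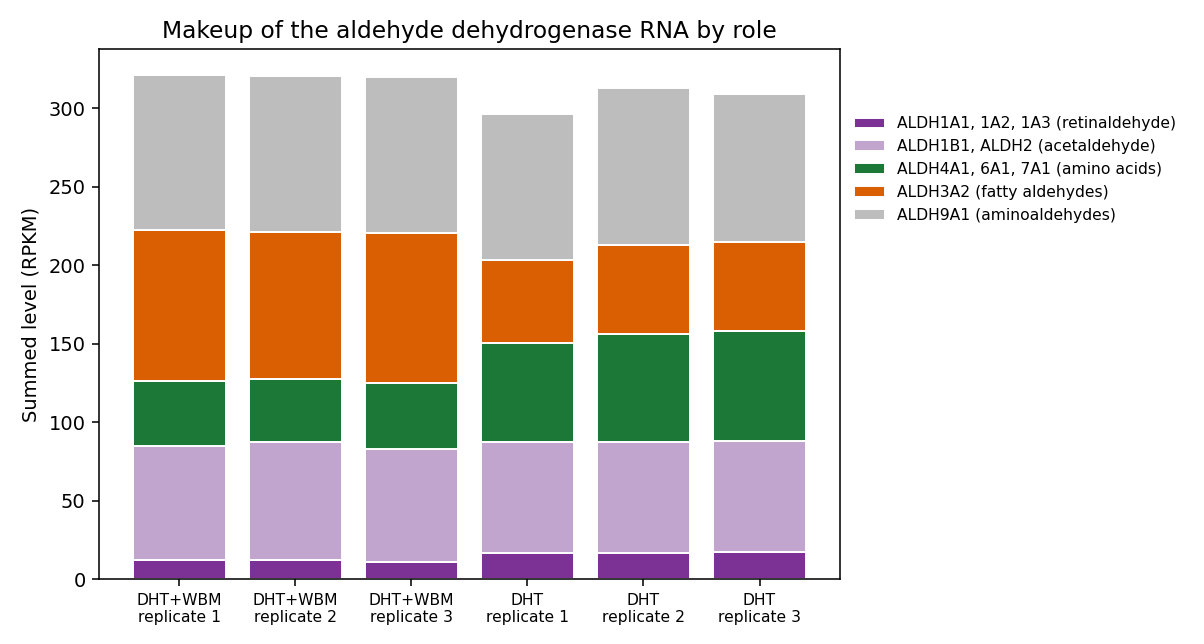
Summed RPKM of the 10 members in each library, with DHT+WBM libraries on the left and DHT libraries on the right, stacked by the substrate of the enzymes. The ALDH3A2 block is larger and the block of ALDH4A1, ALDH6A1 and ALDH7A1 smaller in the 3 DHT+WBM libraries, while the totals lie between 296 and 321 RPKM.

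Both tested retinaldehyde dehydrogenases, ALDH1A3 and ALDH1A1, were lower with the extract. ALDH1A3 (chromosome 15, 101420009 to 101456830, plus strand, hg19), the main ALDH1A enzyme gene of these cells by RPKM, was at 39.5, 38.7 and 36.4 CPM in DHT+WBM replicates 1 to 3, against 52.1, 54.0 and 54.3 CPM in DHT. All DHT+WBM libraries were below all DHT libraries, and the log2 fold change was -0.49 ± 0.05 (SE, edgeR adjusted p = 3.24e-10). ALDH1A1 (chromosome 9, 75515578 to 75695358, minus strand, hg19) was rare, with 43, 50 and 31 counts in DHT+WBM and 72, 64 and 81 counts in DHT. In CPM these libraries stood at 2.10, 2.57 and 1.43 in DHT+WBM and at 3.44, 3.22 and 3.95 in DHT, again without overlap. Its log2 change of -0.81 ± 0.18 (SE, edgeR adjusted p = 0.000172) was the largest in size among the members and the least precise, with a 95% interval of -1.17 to -0.45. Among all 13466 tested genes it ranked 518 from the largest fall. The size rested partly on single libraries, at -1.02 without DHT+WBM replicate 2 and -0.61 without DHT+WBM replicate 3, and the call was kept in each case.

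ALDH1A2 (chromosome 15, 58245622 to 58571462, minus strand, hg19), the retinaldehyde dehydrogenase best known from the embryo, was close to absent in every library. It had 1, 1 and 0 counts in DHT+WBM and 0, 2 and 1 counts in DHT, below the 3 counts per library, 0.138 to 0.154 CPM, that a count of 0 allows, so no fold is given. AQP9 lies inside its span on the opposite strand, and the strand setting of the counting is not given in the sources used here. The summed level of the 3 ALDH1A genes was 12.2, 12.2 and 11.03 RPKM in DHT+WBM and 16.4, 16.9 and 17.2 RPKM in DHT, a ratio of 0.702. An exact two-sided permutation test over the 6 libraries gave p = 0.1, the smallest that 3 against 3 can give.

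The genes nearest to ALDH1A1 in pattern were found among 10737 genes with a mean of at least 5 CPM. Likeness was the Euclidean distance of centred log2 CPM over the 6 libraries, which fall into 2 groups, so any gene with a similar difference between groups is near. RARB, the gene of retinoic acid receptor beta, came first with a distance of 0.267. MEIS1, a homeobox transcription factor gene, followed at 0.300, and RPS26, a ribosomal protein gene with processed copies, at 0.302. RARB was at 4.72 ± 1.01 CPM in DHT+WBM and 8.52 ± 0.41 CPM in DHT (SD, n = 3), a log2 change of -0.86 ± 0.12 (SE, edgeR adjusted p = 1.21e-07).

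The acetaldehyde pair, both located in mitochondria, moved in opposite directions and by small amounts. ALDH2 (chromosome 12, 112204691 to 112247789, plus strand, hg19), the main acetaldehyde dehydrogenase of alcohol metabolism, was at 68.2, 69.6 and 65.2 CPM in DHT+WBM, against 57.4, 55.0 and 57.8 CPM in DHT. Every DHT+WBM library was above every DHT library, with a log2 change of 0.25 ± 0.05 (SE, edgeR adjusted p = 2.00e-05). ALDH1B1 (chromosome 9, 38392661 to 38398662, plus strand, hg19), its close relative, was at 120, 126 and 123 CPM in DHT+WBM and 131, 134 and 131 CPM in DHT. The groups did not overlap, but the log2 fold change was only -0.10 ± 0.04 (SE, edgeR adjusted p = 0.0369). This call was lost with upper-quartile factors (log2 fold change -0.07, edgeR adjusted p = 0.151) and with library totals alone (-0.05, edgeR adjusted p = 0.274). It was also lost without DHT+WBM replicate 1, DHT+WBM replicate 3 or DHT replicate 2, where the edgeR adjusted p was 0.119, 0.0654 and 0.0657 and the log2 fold change -0.09, -0.11 and -0.09.

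ALDH3A2 (chromosome 17, 19552064 to 19580908, plus strand, hg19) showed the largest rise among the members. It encodes the fatty aldehyde dehydrogenase of the endoplasmic reticulum, which oxidises long-chain aldehydes, including the hexadecenal left when sphingosine 1-phosphate is cleaved, and whose loss causes Sjögren-Larsson syndrome. It was at 398, 389 and 395 CPM in DHT+WBM, against 219, 234 and 235 CPM in DHT. The lowest DHT+WBM library was far above the highest DHT library, and the spread within each group was small. The 1.72-fold rise, a log2 change of 0.78 ± 0.04 (SE, edgeR adjusted p = 8.96e-20), ranked 721 from the largest rise among all tested genes.

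Both tested members of the amino acid group, ALDH6A1 and ALDH4A1, were lower. ALDH6A1 (chromosome 14, 74526872 to 74551196, minus strand, hg19), the methylmalonate semialdehyde dehydrogenase of valine and pyrimidine breakdown, was at 69.0, 68.7 and 71.3 CPM in DHT+WBM, against 111, 124 and 120 CPM in DHT. The groups were far apart, with a 1.70-fold fall and a log2 change of -0.77 ± 0.05 (SE, edgeR adjusted p = 2.37e-17). It ranked 573 from the largest fall among all tested genes. BBOF1 overlaps it on the opposite strand and averaged 119 counts in DHT+WBM and 135 in DHT, whereas ALDH6A1 had 1337 counts or more in each library.

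ALDH4A1 (chromosome 1, 19197924 to 19229293, minus strand, hg19), which oxidises the glutamate semialdehyde formed in proline breakdown to glutamate, was at 42.4, 38.3 and 39.8 CPM in DHT+WBM, against 55.6, 55.7 and 65.2 CPM in DHT. DHT replicate 3 was the highest library and the groups did not overlap. Its log2 fold change was -0.55 ± 0.06 (SE, edgeR adjusted p = 1.71e-10). ALDH7A1 (chromosome 5, 125877533 to 125931082, minus strand, hg19), which handles the aminoadipate semialdehyde of lysine breakdown and betaine aldehyde, was barely detected. It had 9, 3 and 8 counts in DHT+WBM and 11, 10 and 7 counts in DHT, and the groups overlapped. With a deposited length of 5.28 kb, longer than that of any other member, these counts came to at most 0.0996 RPKM.

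ALDH9A1 (chromosome 1, 165631449 to 165667900, minus strand, hg19), which makes the carnitine precursor gamma-butyrobetaine from its aldehyde, was at 274, 274 and 277 CPM in DHT+WBM and 257, 276 and 262 CPM in DHT. The groups overlapped through DHT replicate 2, and the log2 change of 0.05 ± 0.04 (SE) did not pass the test (edgeR adjusted p = 0.232). The 95% interval was -0.02 to 0.13. With upper-quartile factors or library totals alone it was called higher, at 0.09 and 0.10 (edgeR adjusted p = 0.0444 and 0.0198).

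**Figure D3:**
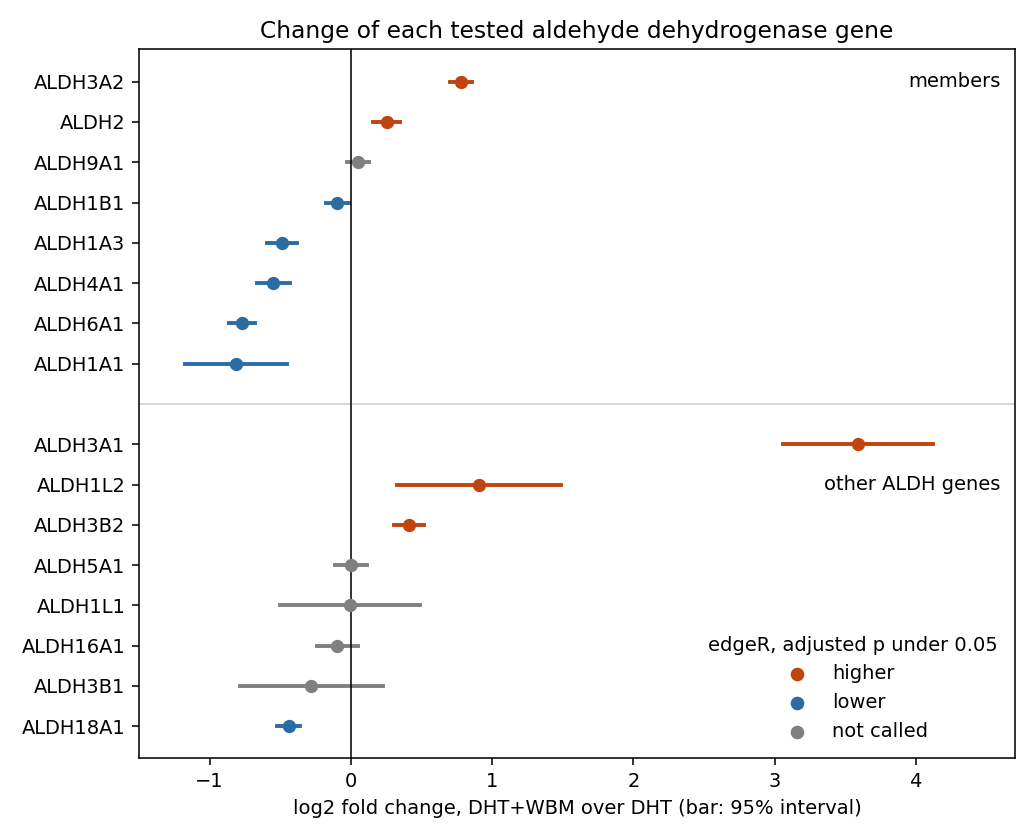
Log2 fold change, DHT+WBM over DHT, with 95% intervals for the 8 tested members above the line and 8 tested other ALDH genes below it. Red genes were called higher, blue lower and grey not called. The members lie between -0.81 and 0.78, while ALDH3A1 among the other genes lies at 3.59.

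The remaining 9 ALDH genes of the genome were mixed, with 3 of 8 tested genes higher, 1 lower and a median log2 fold change of 0.00. Called genes made up 50% of the 8, against 58.2% of all tested genes. ALDH3A1, a relative of ALDH3A2 and a known target of the aryl hydrocarbon receptor, had 70, 88 and 76 counts in DHT+WBM and 9, 5 and 5 counts in DHT. Its log2 fold change was 3.59 ± 0.26 (SE, edgeR adjusted p = 9.09e-15), but it stayed rare, at 3.81 ± 0.62 CPM in DHT+WBM and 0.308 ± 0.11 CPM in DHT (SD, n = 3). It passed the filter only through DHT+WBM, since all 3 DHT libraries were below 0.486 CPM, so a difference was built into its being tested. ALDH3B2, a relative active on lipid aldehydes, rose to 45.3 ± 0.49 CPM in DHT+WBM, against 34.1 ± 0.51 CPM in DHT. ALDH1L2, the mitochondrial formyltetrahydrofolate dehydrogenase, was called at a log2 value of 0.91, from 1.17 CPM in DHT+WBM and 0.620 CPM in DHT, and the call was lost with DESeq2 (adjusted p = 0.0531). It too needed the DHT+WBM libraries to pass the filter.

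ALDH18A1, which makes glutamate semialdehyde from glutamate for proline synthesis, fell to 182 ± 5.23 CPM in DHT+WBM, against 246 ± 10.6 CPM in DHT (SD, n = 3). ALDH5A1, the succinate semialdehyde dehydrogenase of GABA breakdown, was at 38.2 CPM in DHT+WBM and 38.1 CPM in DHT and was not called. ALDH16A1, ALDH1L1 and ALDH3B1 were not called either, with log2 fold changes of -0.10, -0.01 and -0.28. Without DHT replicate 2, ALDH16A1 was called lower at -0.19 (edgeR adjusted p = 0.0205), which made 2 lower genes. ALDH8A1 had no count in any library.

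Of 28 listed genes that handle retinoids around the ALDH1A step, 15 were tested, of which 5 were lower and 2 higher. The median log2 value of these genes was -0.08, and 46.7% of them were called, against 58.2% of all tested genes. RDH11, an androgen-regulated retinaldehyde reductase of prostate, fell to 446 ± 10.4 CPM in DHT+WBM, against 638 ± 17.7 CPM in DHT (SD, n = 3), a log2 change of -0.52. RARB, at -0.86, was also lower, and RARA, RARG, RXRA and RXRB were not called, between -0.10 and 0.02. RDH13, a mitochondrial member, was called at -0.23, while CYP26B1, which degrades retinoic acid, and DHRS3, a retinaldehyde reductase, were called in the other direction at 0.87 and 0.20. CYP26B1 was rare, at 0.819 CPM in DHT+WBM and 0.437 CPM in DHT, and needed the DHT+WBM libraries to pass the filter. RDH12, counted among the lower genes at -0.87, was at 0.469 CPM in DHT+WBM and 0.866 CPM in DHT. It needed the DHT libraries, where it is higher, to pass the filter.

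Over the 14 alternatives, the call of RDH13 was lost in 5 and that of DHRS3 in 8, and that of CYP26B1 in 4 of the 13 that tested it, DESeq2 among them for each. RDH13 was lost without DHT+WBM replicate 2 or DHT replicate 1 (edgeR adjusted p = 0.121 and 0.124). CYP26B1 was lost without DHT+WBM replicate 1, DHT+WBM replicate 2 or DHT replicate 2 (edgeR adjusted p = 0.0693, 0.204 and 0.213). DHRS3 was lost without DHT+WBM replicate 1, 2 or 3 (edgeR adjusted p = 0.154, 0.0551 and 0.119) and without DHT replicate 1 or 3 (edgeR adjusted p = 0.171 and 0.0691). The count of lower retinoid genes was 2 without DHT+WBM replicate 2, 3 without DHT+WBM replicate 3 and 3 without DHT replicate 1. The count of higher ones was 1 without DHT+WBM replicate 1, 0 without DHT+WBM replicate 2 and 1 without DHT+WBM replicate 3.

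In alcohol and acetaldehyde metabolism, 2 of 7 tested genes rose and 2 fell. On the log2 scale their median was -0.09, and 57.1% of them were called, against 58.2% of all tested genes. CAT, the catalase gene, rose to 226 ± 6.51 CPM in DHT+WBM, against 171 ± 6.58 CPM in DHT (SD, n = 3). ACSS2, which activates the acetate that aldehyde dehydrogenases form, rose to 66.4 ± 1.35 CPM in DHT+WBM, against 49.1 ± 1.84 CPM in DHT. ADH1C, an alcohol dehydrogenase gene with near-identical relatives, was lower by a log2 change of -2.19 at 0.5 CPM in DHT+WBM and 2.32 CPM in DHT, so its count is uncertain. It needed the DHT libraries, where it is higher, to pass the filter. CYP2E1, a microsomal oxidase gene, was at 5.87 CPM in DHT+WBM and 9.32 CPM in DHT.

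Around ALDH3A2, the list of fatty aldehyde and sphingolipid breakdown had as many genes higher as lower. Of 12 tested genes 5 were higher and 5 lower. Their median log2 value was 0.04, and 83.3% of them were called, against 58.2% of all tested genes. PHYH, which starts the alpha-oxidation of branched fatty acids, rose to 175 ± 6.40 CPM in DHT+WBM, against 109 ± 2.83 CPM in DHT (SD, n = 3), a log2 change of 0.68. The fatty acyl-CoA reductase genes FAR1 and FAR2, whose products turn fatty acids to alcohols, had log2 fold changes of -0.32 and 0.38. CYP4F2, the largest change of the list at 1.44, was rare, at 0.933 CPM in DHT+WBM and 0.340 CPM in DHT. It was counted as higher and needed the DHT+WBM libraries to pass the filter. With a stricter filter, 1 CPM in 3 libraries, 4 genes were higher and 5 lower. The lower count was 2 without DHT+WBM replicate 1 and 2 without DHT replicate 3.

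In proline and glutamate metabolism, 3 of 12 tested genes rose and 5 fell. The median log2 value of these genes was -0.11, and 66.7% of them were called, against 58.2% of all tested genes. GLUD1, the glutamate dehydrogenase gene, fell to 101 ± 2.61 CPM in DHT+WBM, against 178 ± 8.43 CPM in DHT (SD, n = 3), a log2 change of -0.82, although its retrocopy GLUD2 can take reads of it. GOT2, the mitochondrial aspartate aminotransferase gene, fell by 0.25 on the log2 scale. The genes that rose were GLUL, the glutamine synthetase gene, at 0.47, GLS2, a glutaminase gene, at 0.45, and OAT, which makes glutamate semialdehyde from ornithine, at 0.23. PRODH, which feeds ALDH4A1 with proline-derived substrate, was at 0.257 CPM in DHT+WBM and 0.212 CPM in DHT and was not tested.

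The valine and pyrimidine list around ALDH6A1 had 7 of 16 tested genes lower and 1 higher. On the log2 scale their median was -0.07. Called genes made up 50% of the list, against 58.2% of all tested genes, of which 29.0% were lower and 29.2% higher. DBT, a subunit of the branched-chain keto acid dehydrogenase, fell to 169 ± 3.04 CPM in DHT+WBM, against 236 ± 9.78 CPM in DHT (SD, n = 3). BCAT1 and BCAT2, the cytosolic and mitochondrial branched-chain aminotransferase genes, fell by 0.47 and 0.30 on the log2 scale, and PCCA, a propionyl-CoA carboxylase subunit gene, rose at 0.24. HIBADH, which makes the substrate of ALDH6A1, was at 86.0 CPM in DHT+WBM and 86.6 CPM in DHT and was not called. ALDH6A1 itself, at -0.77, lay below the lowest value of this list, -0.48.

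Of 6 tested genes of lysine breakdown and choline oxidation 5 were lower and 1 higher. Their median log2 value was -0.25, and 100% of them were called, against 58.2% of all tested genes. AASS, the first enzyme of lysine breakdown, fell to 16.4 ± 0.19 CPM in DHT+WBM, against 27.2 ± 0.18 CPM in DHT (SD, n = 3). GNMT, a glycine methyltransferase gene, and AADAT, an aminoadipate aminotransferase gene, had log2 fold changes of -0.82 and -0.32. CHDH, which forms the betaine aldehyde that ALDH7A1 can use, was called at 0.13. That call was lost in 7 of 14 alternatives, among them without DHT+WBM replicate 1, 2 or 3 (edgeR adjusted p = 0.0644, 0.140 and 0.165) and without DHT replicate 1 (edgeR adjusted p = 0.261). The list had no higher gene without DHT+WBM replicate 1, DHT+WBM replicate 2 or DHT replicate 1, and 2 without DHT replicate 2.

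Carnitine synthesis and uptake, the setting of ALDH9A1, had 2 of 4 tested genes lower and none higher. The median log2 value of these genes was -0.17, and 50% of them were called, against 58.2% of all tested genes. SHMT2, a mitochondrial serine hydroxymethyltransferase gene, fell to 222 ± 1.47 CPM in DHT+WBM, against 265 ± 7.24 CPM in DHT (SD, n = 3). SLC22A4, an organic cation transporter gene, was called at -0.81 from 0.410 CPM in DHT+WBM and 0.717 CPM in DHT, and needed the DHT libraries to pass the filter. This call was lost in 10 of the 13 alternatives that tested it, among them without DHT+WBM replicate 1 or 3 (edgeR adjusted p = 0.0746 and 0.211) and without DHT replicate 1, 2 or 3 (edgeR adjusted p = 0.103, 0.0545 and 0.0911), which left 1 lower gene. TMLHE and BBOX1, the dedicated enzymes before and after ALDH9A1, had 1 and 5 counts in all in DHT+WBM and 0 and 2 counts in DHT, and SLC22A5, the carnitine transporter gene, was not called at -0.02.

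**Figure D4:**
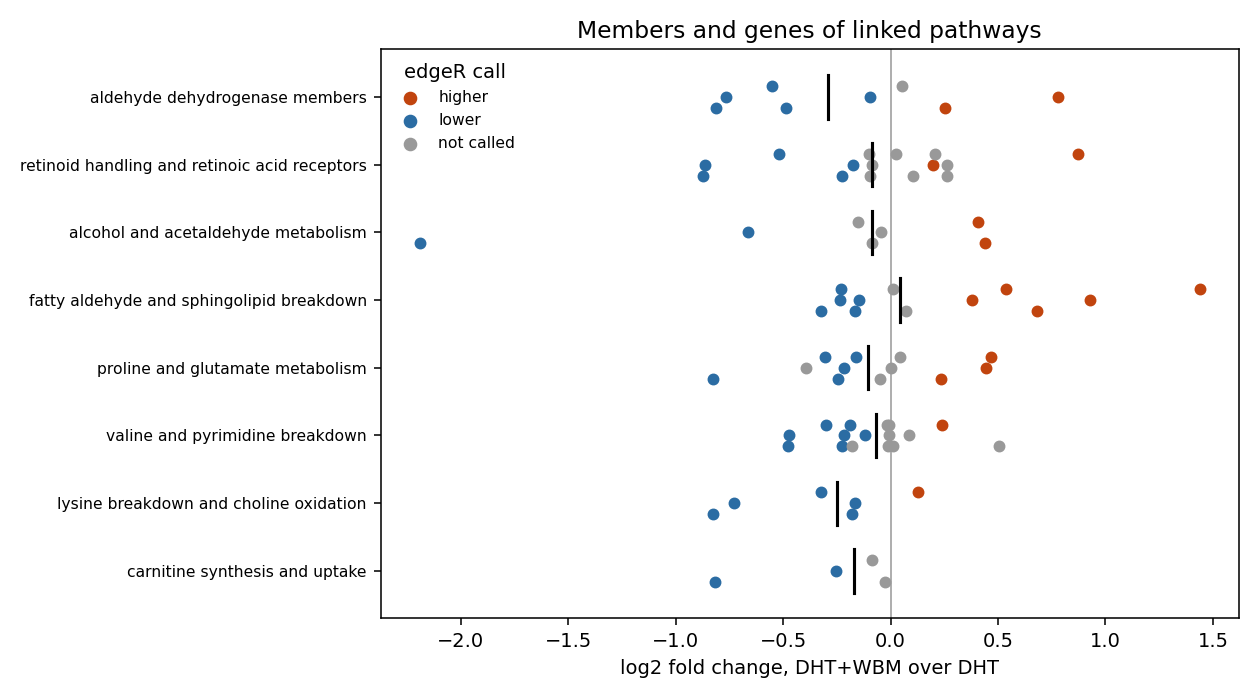
Log2 fold changes, DHT+WBM over DHT, of the tested members and of the tested genes of 7 linked pathway lists, with a point per gene and a black line at each median. Red points were called higher, blue lower and grey not called. All medians lie between -0.29 and 0.04, and the lists hold genes on either side of 0, except carnitine synthesis and uptake.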

How the data were processed

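RNA sequencing of 6 LNCaP libraries was used, grouped by sample title. The table that the authors deposited holds unnormalized read counts, together with gene positions and gene lengths, a value of another kind. Per the submitters' processing notes, STAR 2.6.0 and HTSeq 0.6.0 were involved, as were edgeR 3.28.1, bcl2fastq 2.18.0.12 and the build hg19. The sources used here do not give their roles, the annotation or the strand setting.

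From the counts, edgeR 4.0.16 (R 4.3.3) was run with filterByExpr (minimum count 10, minimum total 15), TMM factors and the two-sided quasi-likelihood F-test, DHT+WBM over DHT. SE is the size of the log2 fold change divided by the root of F. CPM and RPKM use TMM-scaled library sizes over the tested genes. In the smallest library, of 19127357 counts, 3 counts are 0.154 CPM, a floor that covers counting error only. The common coefficient of variation beyond counting noise was 3.39%. Replicates differed by more than sampling noise, and more so in DHT. Chi-square per degree of freedom was 3.8 to 4.3 between DHT libraries and 1.7 to 2.0 between DHT+WBM libraries. The fit was also run on counts simulated with the coefficient of 3.39% for every gene in both groups. That setting lacks the unequal spread of the replicates, so nothing is concluded from it here.

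The members and lists were chosen with earlier results of these data known. Named genes were all ALDH genes, up to 3 called genes a list with the smallest adjusted p, called genes opposite to most of their list, and the 3 genes nearest to ALDH1A1 on log2(CPM + 0.5). Other genes were chosen after their values were seen. Replicate numbers were not treated as pairs. Most list genes are counted but not named, and some are not reported here. The alternatives, which include DESeq2 1.42.0 and limma 3.58.1, are in the closing section, and those for the summed ALDH1A level were chosen after seeing the data.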

Additional observations from a re-analysis of the deposited data

How the results depend on the processing

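The results were recomputed under 14 alternatives: RLE factors, upper-quartile factors, unscaled library totals, no low-count filter, a stricter filter (1 CPM in 3 libraries), DESeq2, limma-voom, a fit blocked by replicate number, and each of the 6 libraries omitted. ALDH1A1, ALDH1A3, ALDH2, ALDH3A2, ALDH4A1 and ALDH6A1 kept their direction and call in all 14. With upper-quartile factors or unscaled totals the members stood at 3 higher and 4 lower, since ALDH9A1 was gained and ALDH1B1 lost. Omitting a library left 2 higher members and 4 to 5 lower. Unscaled totals called 4675 genes higher and 3200 lower and moved the median of all genes to 0.05, DESeq2 called 3262 and 3393, and omitting a library gave 3440 to 3791 higher and 3642 to 3789 lower. With the replicate block, 4079 genes were higher and 4030 lower, and the members stayed at 2 higher and 5 lower. Deviations of same-numbered libraries correlated at 0.0479, 0.0792 and 0.0211, not every library correlated best with its own number, and the numbers were not taken as pairs. Of the genes with single-gene refits, given below, SLC22A4 lost its call under the block (edgeR adjusted p = 0.0531). The summed ALDH1A ratio was 0.687 to 0.726. Its exact permutation p was 0.1 throughout, the smallest that these numbers of libraries allow, so it could not pass 0.05 in any setting. Where a setting let ALDH7A1 through the filter, 5 in all, its log2 fold change was -0.77 to -0.19 and it was not called (edgeR adjusted p = 0.215 to 0.760). ALDH1A2 was tested without a filter alone and not called (edgeR adjusted p = 0.793). Retinoid genes called lower numbered 3 with upper-quartile factors or unscaled totals and 2 with DESeq2. None of the retinoid genes was called higher with DESeq2 or with the stricter filter. Fatty aldehyde genes called lower numbered 2 with unscaled totals. Among the markers of other cell types, 1 was called lower with RLE factors, either filter change, the block or DHT replicate 2 omitted. The single-gene refits, 586 in all, covered the ALDH genes with a main test and the list genes named by p or direction. Among them 40 calls were lost, 3 gained and none reversed, and the cause was not tested. MEIS1, RPS26 and the genes chosen after their values were seen had no such refits. Depth limits ALDH1A1, ALDH1A2 and ALDH7A1 most.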

Other observations

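Some genes of the linked pathways were too rare to be tested, and their counts are given here because the libraries of the groups did not overlap. They were chosen after their values were seen. CRABP2, which carries retinoic acid to its nuclear receptors, had 9, 20 and 13 counts in DHT+WBM replicates 1 to 3 and 5, 3 and 8 counts in DHT replicates 1 to 3. DPYD, the first enzyme of pyrimidine breakdown, had 3, 1 and 4 counts in DHT+WBM and 7, 5 and 10 counts in DHT.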
